A study of Mus musculus with 45 samples.

Results

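Day 5 cultures that received bone morphogenetic protein 4 (BMP4) after retinoic acid (RA) were compared with cultures of the same day that received RA alone, by bulk RNA sequencing of differentiating mouse embryonic stem cells (mESCs). The 3 libraries labelled B5 were set against the 3 labelled R5, which are 6 of the 45 libraries of the series. All cultures were adherent, were first directed to neuromesodermal progenitors with bFGF and CHIR, an activator of WNT signalling, and entered RA on day 3. B5 cultures had 100 nM RA for 24 h and then 100 nM RA with 10 ng/ml BMP4 for 24 h. R5 cultures had 100 nM RA for 48 h with no BMP4. The 2 groups therefore share the length of RA exposure and differ in 24 h of BMP4.

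Other groups of 3 libraries each were used beside them. B7 and R7, and B9 and R9, had the treatments of B5 and R5 and were sampled on days 7 and 9. B6hr and R6hr were sampled 6 h into the second 24 h. M4 and M5 had both factors together from day 3, for 24 h and 48 h, and R4 had RA alone for 24 h. The RA interval of the R cultures is stated in 2 ways, 1 day apart, and the titles' days were followed. Which mESC line was used is not stated in the labels. The series' text speaks of 3 separate differentiations, and the labels do not tie a replicate number to one of them, so p-values measure the spread between these libraries, which may be technical in part.

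BMPs are secreted ligands that bind pairs of serine/threonine kinase receptors, which phosphorylate the receptor Smads encoded by Smad1, Smad5 and Smad9. These join Smad4 and activate the Id and Msx genes along with inhibitors of the pathway itself, Smad6, Smad7 and Bambi. In the embryo BMPs from the roof plate and the overlying ectoderm instruct the dorsal neural tube, where dI1 to dI6 interneurons arise from dorsal to intermediate progenitors. BMPs also pattern mesoderm toward lateral plate, and they act on neural crest. RA from the somites promotes neural differentiation and the expression of anterior Hox genes. These roles are background to the values below.

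The deposited table gives a normalized level without a stated unit for 11220 genes, and lists those the authors found at a false discovery rate below 0.1 in 1 or more of their 12 comparisons of treated groups. The listed levels summed to between 13840847 and 15868724 in the 6 libraries, and the depth in reads is unknown. Libraries did not split cleanly by label: over all genes the log2 levels of B5 library 3 correlated more closely with R5 library 1 (r = 0.982) than with B5 library 1 (0.978), and R5 library 1 correlated with R5 library 2 at 0.978. The libraries labelled 1 stood apart within both groups. The neuronal tubulin gene Tubb3 had levels of 2829, 536 and 390.4 in B5, against 574, 1789.7 and 1210.2 in R5, and Dcx, a microtubule gene of young neurons, had 1162, 129.6 and 175 in B5, against 150.1, 1072 and 1169 in R5. For both genes B5 library 1 was the highest of its group and R5 library 1 the lowest of its group. Cdx2, a caudal homeobox gene, had 19.7, 72.7 and 119 in B5, against 99.4, 30.1 and 48.1 in R5, so that its order was the opposite. Counts over some of the gene lists are given again without the 2 libraries of number 1, an alternative chosen after the data were seen. In bulk samples fewer cells of a type and less RNA per cell cannot be told apart.

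After 24 h of BMP4, the largest rise in B5 was that of Hand1, a lateral plate and heart factor gene, and the largest fall was that of Dbx1, a factor gene of intermediate neural progenitors. Of the 11220 genes, 672 (5.99%) passed an adjusted p of 0.05 in limma: 310 (2.76%) rose and 362 (3.23%) fell in B5 relative to R5. The change was 2-fold or more for 153 risen and 165 fallen genes. The 3 B5 values lay outside the 3 R5 values for 301 of the risen and 358 of the fallen genes, against 2421 of all genes (21.6%). The median log2 change over all genes was -0.007. The shares risen and fallen over all genes, 2.76% and 3.23%, are the ones to set beside each list count below. The call held with each of the 6 libraries left out in turn for 86 risen and 65 fallen genes. The number called ranged from 196 without B5 library 2 and 222 without R5 library 3 to 336 without R5 library 2, 341 without B5 library 1 and 897 without B5 library 3, and without both libraries of number 1 it was 422, of which 149 rose. The authors' deposited table has 607 genes with a false discovery rate under 0.05 for the same groups.

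**Figure D1:**
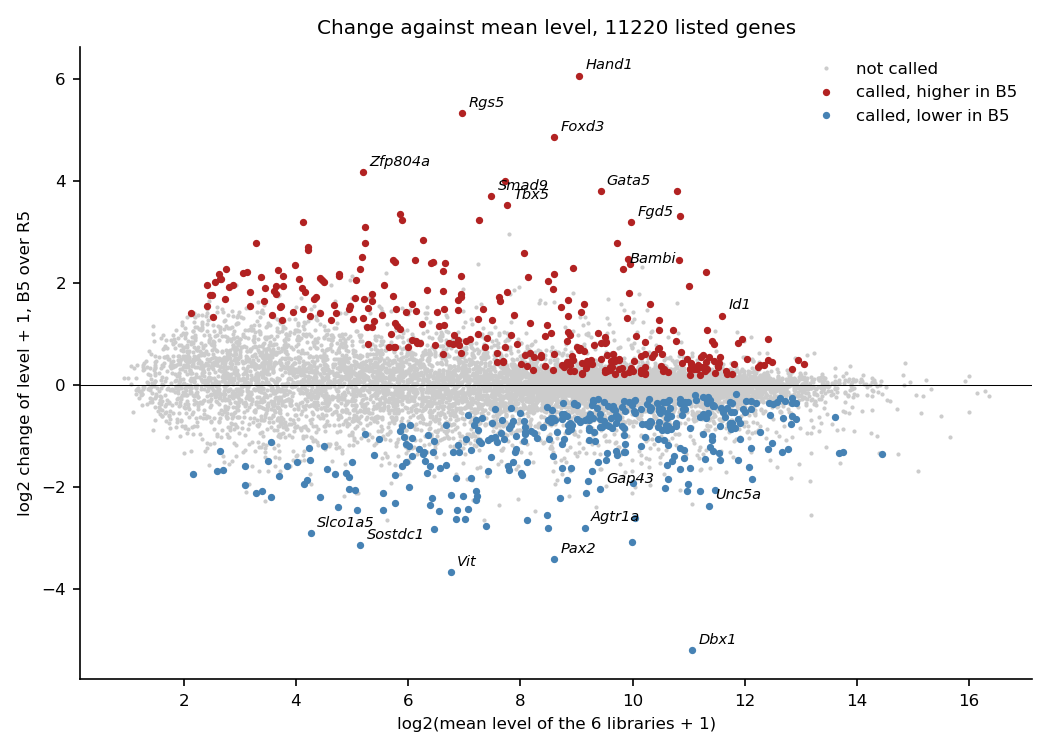
Log2 change of level + 1 in B5 over R5 (y axis) against the log2 mean level of the 6 libraries plus 1 (x axis) for the 11220 listed genes, 1 point per gene, with the 310 risen genes in red and the 362 fallen genes in blue. The changes of 2-fold or more reach 6.07 for Hand1 at the top and -5.20 for Dbx1 at the bottom.

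The genes with large rises included transcription factors known from mesoderm and neural crest, and genes of other kinds. Hand1 (mm10 chromosome 11, 57828705 to 57832818), a basic helix-loop-helix factor of the lateral plate and heart, had levels of 824, 1266 and 1028 in B5, against 22, 9.23 and 14.1 in R5 (log2 change 6.07, SE 0.91, adjusted p = 1.05e-04). Every B5 library was far above every R5 library, though genes with the largest changes were named only if their groups did not overlap. Rgs5 (mm10 chromosome 1, 169655501 to 169695813), a regulator of G protein signalling known from pericytes, had 394, 181 and 157 in B5, against 3.89, 5.16 and 4.78 in R5 (log2 change 5.33, SE 0.62, adjusted p = 3.89e-06). Foxd3 (mm10 chromosome 4, 99656299 to 99658622), a forkhead factor of premigratory neural crest and dI2 interneurons, had 1576, 496 and 184 in B5, against 11.4, 42.2 and 9.8 in R5 (log2 change 4.87, SE 0.84, adjusted p = 4.30e-04). The 3 B5 values of Foxd3 differed widely among themselves, with library 1 the highest, yet none came near the R5 values. Gata5 (mm10 chromosome 2, 180325133 to 180334699), a zinc finger factor of heart and endoderm, had 1288, 980.4 and 1587 in B5, against 95, 61.2 and 123 in R5 (log2 change 3.80, SE 0.87, adjusted p = 0.00715). Its antisense gene Gata5os is listed as risen too, and without a stated strand in the counting the reads of these genes cannot be told apart. Tbx5 (mm10 chromosome 5, 119832668 to 119885219), a T-box factor of forelimb and heart, had 640.3, 237 and 325 in B5, against 17.3, 50.8 and 32.9 in R5 (log2 change 3.53, SE 0.69, adjusted p = 0.00166), and Shox2 (mm10 chromosome 3, 66971727 to 66981771), a homeobox factor of limb and sinoatrial node, had 131, 58.4 and 123 in B5, against 6.06, 5.82 and 17.7 in R5 (log2 change 3.36, SE 0.59, adjusted p = 5.29e-04). For both genes the groups did not overlap, which the rule for naming them required.

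Other genes with large rises were of several kinds. Zfp804a, a zinc finger gene, had levels of 119, 35.1 and 52.6 in B5, against 0.839, 4.25 and 3.11 in R5 (4.17 on the log2 scale, adjusted p = 0.00166). Grin2c encodes a subunit of the NMDA glutamate receptor, and its levels were 730.2, 226 and 225 in B5, against 12.8, 53.4 and 11.1 in R5 (4.0, adjusted p = 0.00190). Shisa3, whose product restrains WNT and FGF receptors, had 6204, 1858 and 1913 in B5, against 82.6, 361 and 264 in R5 (3.81, adjusted p = 0.00141). In these 3 genes and in Ecm1, which encodes an extracellular matrix glycoprotein, B5 library 1 was the highest by a wide margin. Ecm1 had 6673, 2208 and 1306 in B5, against 123, 405 and 392 in R5 (3.31, adjusted p = 0.0179). The transcript 4930412O13Rik had 285, 209 and 338 in B5, against 28.5, 20.5 and 36.7 in R5 (3.25, adjusted p = 0.0228). Removing any 1 of the 6 libraries left Hand1, Rgs5, Foxd3, Gata5, Tbx5, Shox2, Zfp804a, Grin2c and Shisa3 called. Without both libraries of number 1 the calls of Tbx5 (0.0558), Zfp804a (0.0548), Grin2c (0.056) and Shisa3 (0.0726) ended. With the 6 libraries alone in limma those of Foxd3 (0.0688), Grin2c (0.0694) and Shisa3 (0.066) ended. The call ended with 1 library left out for Ecm1 (0.0599 to 0.115 without B5 library 1 or 2 or R5 library 1) and 4930412O13Rik (0.0650 to 0.0857 without B5 library 1 or 2 or R5 library 2 or 3), with the adjusted p in brackets.

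Promoter sequence is shown for 3 of the genes with the largest rises and for the gene with the largest fall, as the 250 bases before the RefSeq gene start on GRCm38.p6, written 5′ to 3′ on the gene's strand. The windows are Smad9 (chr3:54755332-54755581, plus strand), Rgs5 (chr1:169655251-169655500, plus strand), Foxd3 (chr4:99656049-99656298, plus strand) and Dbx1 (chr7:49636836-49637085, minus strand). Capitals mark a match to GGCGCC, a letter pattern bound by BMP receptor Smads, or to GATAAG, bound by GATA factors, on either strand. The patterns GTCTAGAC (Smad box) and CAGATG (an E-box form) were searched as well and had no match in these 4 windows.
Smad9: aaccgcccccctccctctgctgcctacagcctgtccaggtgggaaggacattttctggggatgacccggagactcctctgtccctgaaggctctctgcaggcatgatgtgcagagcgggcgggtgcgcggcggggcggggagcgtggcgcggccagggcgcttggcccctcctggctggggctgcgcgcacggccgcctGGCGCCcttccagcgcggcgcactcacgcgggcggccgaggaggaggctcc
Rgs5: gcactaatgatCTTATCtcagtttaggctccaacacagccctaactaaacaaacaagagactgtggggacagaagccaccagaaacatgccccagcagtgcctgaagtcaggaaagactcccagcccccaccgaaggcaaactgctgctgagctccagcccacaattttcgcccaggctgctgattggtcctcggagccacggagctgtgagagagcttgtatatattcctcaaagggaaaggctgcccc
Foxd3: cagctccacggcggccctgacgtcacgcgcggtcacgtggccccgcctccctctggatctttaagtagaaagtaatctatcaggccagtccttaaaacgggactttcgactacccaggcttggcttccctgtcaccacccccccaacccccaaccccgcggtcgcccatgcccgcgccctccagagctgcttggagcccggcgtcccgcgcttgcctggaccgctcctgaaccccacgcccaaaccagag
Dbx1: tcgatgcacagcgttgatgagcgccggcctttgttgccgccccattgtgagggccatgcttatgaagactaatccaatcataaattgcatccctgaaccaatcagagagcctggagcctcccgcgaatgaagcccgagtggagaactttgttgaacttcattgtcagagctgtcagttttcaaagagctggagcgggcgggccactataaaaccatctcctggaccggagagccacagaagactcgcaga
The Smad9 window holds GGCGCC at position -51, and the Rgs5 window holds GATAAG on the opposite strand, read as CTTATC, at position -239, counted from the gene start. GGCGCC was present in 15.5% of 219 risen promoters, in 22.1% of 267 fallen promoters, in 17.3% of the 8205 promoters of listed genes and in 9.54% of all 27025 promoters of the reference. GATAAG was in 4.57% of risen, 2.25% of fallen, 4.55% of listed and 6.60% of all promoters. CAGATG was in 9.13%, 8.61%, 10.7% and 14.5% of the same sets, and GTCTAGAC in 0 risen, 0.749% of fallen, 0.171% of listed and 0.174% of all. A match in a window is a description of its letters only.

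Genes that respond directly to BMP signalling were higher in B5 in part. Of the 21 genes of the BMP target list, 20 were in the table: 7 rose and 0 fell, with a median log2 change of 1.46, and 18 of the 20 had a positive change. Smad9 (mm10 chromosome 3, 54755582 to 54801257), the receptor Smad whose own gene responds to the pathway, had levels of 402, 289.6 and 303 in B5, against 22.9, 26.2 and 23.3 in R5 (log2 change 3.71, SE 0.81, adjusted p = 0.00489). Bambi, a pseudoreceptor that dampens BMP signalling, had 1945, 1342 and 1266 in B5, against 249, 383 and 303 in R5 (log2 change 2.28, SE 0.46, adjusted p = 0.00232). In both genes the R5 values were close together and all B5 values lay above them, which the rule for naming Smad9 required. Id1, an inhibitor of basic helix-loop-helix factors, had 5498, 3575 and 4364 in B5, against 1621, 1807 and 1711 in R5 (log2 change 1.37, SE 0.38, adjusted p = 0.0270). Tbx3 (2.45, adjusted p = 0.0304), a T-box repressor, and the GATA factor genes Gata2 (2.18, adjusted p = 0.0344) and Gata3 (2.47, adjusted p = 0.0342) rose as well.

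Several familiar BMP readouts did not pass the test in the main fit. Msx2, a homeobox gene of the dorsal neural tube, had levels of 2112, 1185 and 2487 in B5, against 294, 352 and 489 in R5 (log2 change 2.31, SE 1.07, adjusted p = 0.208), and although its groups did not overlap it was not called. Its relative Msx1 had 6083, 3118 and 15279 in B5, against 4840.4, 5844 and 8277 in R5 (0.10, adjusted p = 0.965), with overlapping groups. Id2 averaged 5875 ± 1889.6 in B5 and 2967 ± 667 in R5 (0.95, adjusted p = 0.405; SD, n = 3 each), and Id3 averaged 10703 ± 3474 in B5 and 9734 ± 2299 in R5 (0.11, adjusted p = 0.926). The feedback inhibitors Smad6 and Smad7 had 2239, 1389 and 1584 in B5, against 682, 980.3 and 827 in R5 for Smad6 (1.05, adjusted p = 0.132) and 1765, 1375 and 947 in B5, against 437, 591 and 409 in R5 for Smad7 (1.48, adjusted p = 0.0787). Id1 to Id4 had a median change of 0.53, the homeobox members 1.57 and the feedback members 1.05. No single removal ended the call of Smad9 and Bambi. Without both libraries of number 1 the adjusted p of Bambi was 0.0502 in limma, and its call ended. Leaving out 1 library ended the calls of Id1 (0.0590 to 0.113 without B5 library 1 or 2 or R5 library 1, 2 or 3), Tbx3 (0.0677 to 0.133 without B5 library 1 or 2 or R5 library 1, 2 or 3) and Gata2 (0.0767 to 0.116 without B5 library 1 or 2 or R5 library 1, 2 or 3), with the adjusted p in brackets. Calls lost when 1 library was removed were those of Gata3 (0.0693 to 0.0998 without B5 library 1, 2 or 3 or R5 library 1, 2 or 3). When the libraries of number 1 were left out, 2 rose and 0 fell in this list. Without the groups D0, D3, R6hr and B6hr, also chosen after the data were seen, 11 rose and 0 fell. The adjusted p in that limma fit was 1.85e-07 for Gata2, 1.31e-07 for Smad9 and 3.5e-06 for Bambi. The main fit shares its spread over all 45 libraries, these groups among them. In the authors' deposited test Smad7 passed, with a false discovery rate of 0.0251, and Smad6 did not (0.0941).

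**Figure D2:**
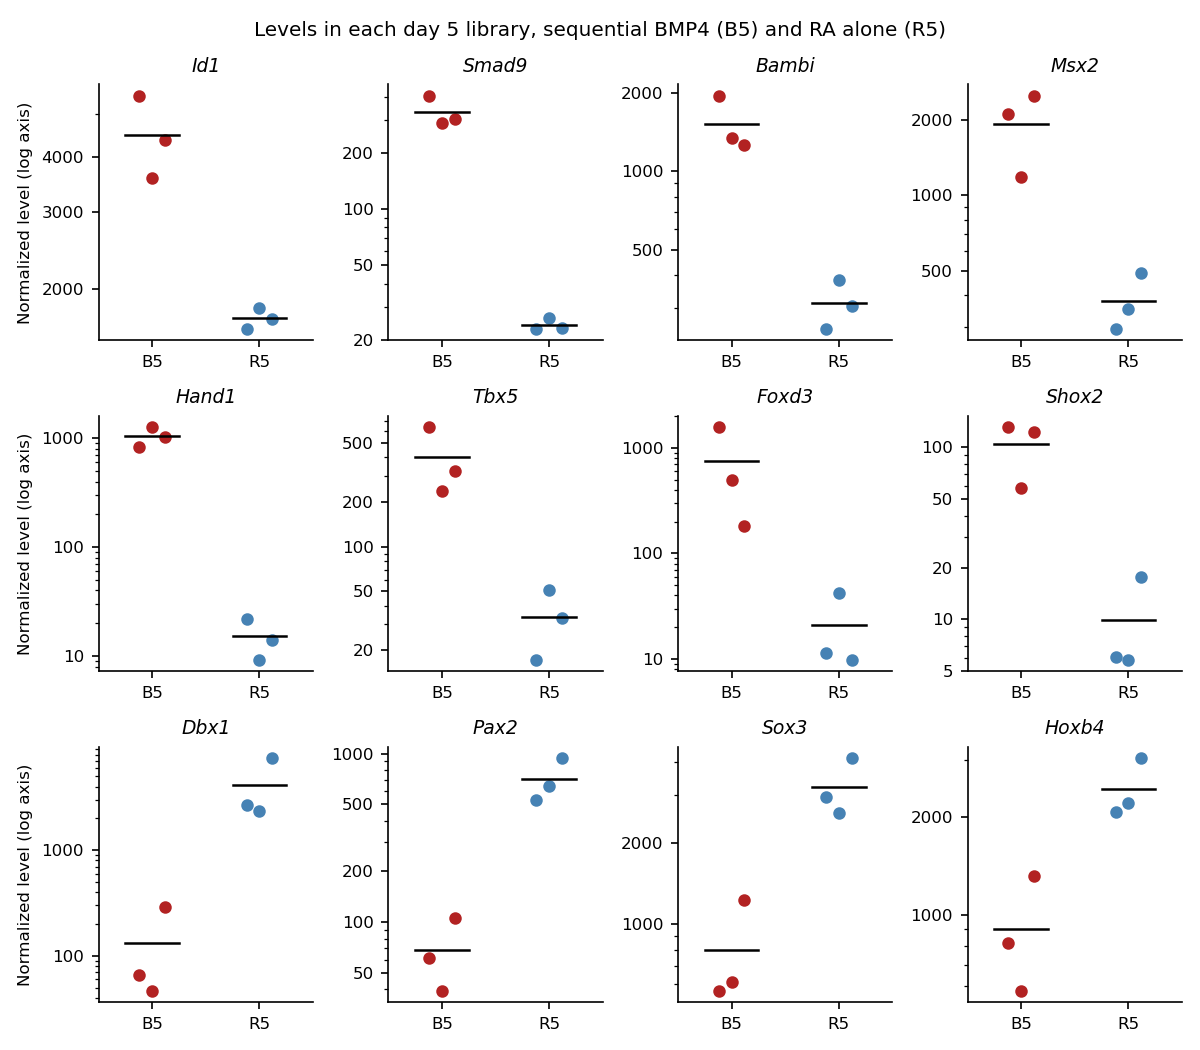
Normalized level (y axis, log scale, no stated unit) of 12 genes in each library, B5 on the left in red and R5 on the right in blue, with 1 point per library in replicate order and a line at the mean of the 3. The B5 points lie above the R5 points for Id1, Smad9, Bambi, Msx2, Hand1, Tbx5, Foxd3 and Shox2 and below them for Dbx1, Pax2, Sox3 and Hoxb4, of which Msx2 was not called.

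A few components of the pathway itself were called, in both directions, where 2.76% of all genes rose and 3.23% fell. Among 42 measured ligands, receptors, antagonists and transducers of BMP and TGF-beta signalling (of 46), 2 rose and 4 fell, with a median of -0.080. Of 14 ligands, Tgfb1 rose and Bmp2 fell. Bmp2 had levels of 107, 92.7 and 159.6 in B5, against 376, 444 and 382 in R5 (log2 change -1.77, SE 0.24, adjusted p = 4.22e-05). Tgfb1, the founding TGF-beta ligand, had 143, 134 and 106 in B5, against 64.8, 68.5 and 39.4 in R5 (1.17, adjusted p = 0.0305). Of 11 receptors, the endothelial type I receptor Acvrl1 rose, with 47.2, 52.7 and 75.4 in B5, against 26.7, 25.4 and 18.7 in R5 (1.26, adjusted p = 0.0447). Of 14 antagonists, 3 fell and 0 rose. Sostdc1, which binds both BMPs and WNT co-receptors, had 20.5, 0.734 and 4.46 in B5, against 23.6, 105 and 52.1 in R5 (-3.14, adjusted p = 0.0351). Sost, which encodes the WNT inhibitor sclerostin, had 11.3, 11.4 and 56.2 in B5, against 159.9, 117 and 164 in R5 (-2.83, adjusted p = 0.0187). Vwc2, a secreted BMP-binding protein gene, averaged 6.21 ± 1.7 in B5 and 20.4 ± 3.41 in R5 (-1.58, adjusted p = 0.0109). All 3 genes were lower in every B5 library, which the rule for naming Sostdc1 and Sost required. With each library left out in turn, Bmp2 stayed called. With 1 library removed, no longer called were Tgfb1 (0.106 to 0.210 without B5 library 1 or 2 or R5 library 3), Sostdc1 (0.0596 to 0.281 without B5 library 2 or 3 or R5 library 2 or 3) and Sost (0.0864 to 0.135 without B5 library 1 or 2 or R5 library 3), with the adjusted p in brackets. Single-library removal ended the calls of Vwc2 (0.0521 to 0.0732 without B5 library 1 or R5 library 3) and Acvrl1 (0.0613 to 0.205 without B5 library 1, 2 or 3 or R5 library 1, 2 or 3). Quantile normalization ended the call of Acvrl1 (0.0550). With libraries 2 and 3 of each group only, 0 rose and 2 fell.

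Lateral mesoderm and cardiac genes rose in part. All 24 list members were measured: 7 rose and 1 fell, with a median of 0.97. Besides Hand1, Tbx5 and Gata5, which are described above, Tbx20 (mm10 chromosome 9, 24718138 to 24774303), a T-box factor of the heart tube, had 147, 179.6 and 78.9 in B5, against 14.3, 15.4 and 22.1 in R5 (log2 change 2.84, SE 0.63, adjusted p = 0.00527). Its groups were clearly apart. Hand2, the relative of Hand1 in heart and limb, had 2012, 845 and 1562 in B5, against 121, 248 and 269 in R5 (2.78, adjusted p = 0.0326). Prrx2, a homeobox gene of limb and heart mesenchyme, had 1776, 1596 and 2362 in B5, against 734, 574 and 573 in R5 (1.60, adjusted p = 0.0368). Tbx18, a T-box gene of epicardium and somites, averaged 152 ± 39 in B5 and 43.5 ± 21.2 in R5 (1.85, adjusted p = 0.0388). The cardiac homeobox gene Nkx2-5 went the other way, at 43.4, 39.4 and 33.8 in B5, against 93.3, 72 and 58.4 in R5 (-0.90, adjusted p = 0.0326). Gata4, the partner of Gata5 in heart and gut, had 1534, 902 and 780.2 in B5, against 392, 862 and 691 in R5 (0.73, adjusted p = 0.511) and was not called. The summed level of the list was 16407 to 28638 in B5 and 13868 to 27231 in R5, so the groups overlapped in this sum. Each of the 6 removals kept Tbx20 called. Without both libraries of number 1 its adjusted p was 0.0537 in limma, and the call ended. Not called after removal of 1 library were Hand2 (0.0595 to 0.119 without B5 library 1, 2 or 3 or R5 library 1, 2 or 3), Prrx2 (0.0521 to 0.146 without B5 library 1, 2 or 3 or R5 library 1, 2 or 3) and Tbx18 (0.118 to 0.175 without B5 library 1 or 2 or R5 library 1 or 3), with the adjusted p in brackets. The call ended with 1 library left out for Nkx2-5 (0.0576 to 0.124 without B5 library 1, 2 or 3 or R5 library 1 or 2). The call of Tbx18 (0.0514) and Nkx2-5 (0.0773) also ended under quantile normalization. In the 4 libraries of numbers 2 and 3, 2 rose and 0 fell.

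Endothelial and blood genes also rose in part. Of 22 measured genes (of 24), 5 rose and 0 fell, the median was 0.81 and 20 changes were positive. Tek, the angiopoietin receptor of endothelium, had 158, 190.2 and 168 in B5, against 63.2, 83.2 and 44.3 in R5 (log2 change 1.46, SE 0.29, adjusted p = 0.00170). Lyl1, a basic helix-loop-helix factor of blood progenitors, had 13.3, 12.6 and 31.3 in B5, against 5.43, 2.76 and 3.58 in R5 (1.94, adjusted p = 0.00527). Flt4, a VEGF receptor gene, averaged 653 ± 103 in B5 and 404 ± 59.5 in R5 (0.69, adjusted p = 0.0120), and Esam, an endothelial adhesion gene, averaged 65.6 ± 11.3 in B5 and 24.6 ± 2.08 in R5 (1.37, adjusted p = 0.0428). The fifth was Gata2. The summed level of the list was 3788 to 5275 in B5 and 2308 to 3561 in R5, and the part of such cells in the other results was not tested. Of 18 intermediate mesoderm and limb genes, 3 rose and 1 fell: Hand2, Shox2 and Tbx5 rose, and Pax2, also a kidney gene, fell. The call of Tek and Lyl1 held in all 6 removals. With the 6 libraries alone both calls ended (0.08 and 0.125 in limma). Leaving out 1 library ended the calls of Flt4 (0.0527 to 0.105 without B5 library 3 or R5 library 3) and Esam (0.0790 to 0.157 without B5 library 1, 2 or 3 or R5 library 1, 2 or 3), with the adjusted p in brackets. Without the libraries of number 1, 3 endothelial and blood genes rose and 0 fell. Of the intermediate mesoderm and limb genes, 1 rose and 1 fell in that fit.

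In the neural crest list, 3 specifier genes and 1 receptor gene rose. Among 23 genes, 4 rose and 0 fell, with a median of 0.35. Along with Foxd3, Snai1, a repressor of epithelial genes, had 689, 632 and 559 in B5, against 210.2, 207 and 233 in R5 (log2 change 1.52, SE 0.27, adjusted p = 5.19e-04). Erbb3, the neuregulin receptor of migrating crest, had 479.9, 421 and 309 in B5, against 186, 205 and 131 in R5 (1.21, adjusted p = 7.90e-04). Tfap2c, an AP-2 factor of crest and surface ectoderm, averaged 484 ± 40.4 in B5 and 222 ± 77.3 in R5 (1.18, adjusted p = 0.0389). Sox10, a later crest factor, had 399, 122 and 232 in B5, against 22.1, 92.4 and 36.7 in R5 (2.38, adjusted p = 0.0694) and did not pass. Its false discovery rate in the authors' deposited test was 0.0370, which is under 0.05. The summed level of the crest list was 13820.3 to 26298 in B5 and 17880.2 to 46216 in R5. Of 22 surface ectoderm genes, 2 rose and 1 fell, with a median of 0.030. The risen members were Tfap2c and Gata3, and the fallen one was Wnt6, a WNT ligand of ectoderm, which had 228, 194 and 206 in B5, against 649, 620.3 and 411 in R5 (-1.39, adjusted p = 1.04e-04). Keratin gene Krt8 averaged 1281 ± 197 in B5 and 1193 ± 136 in R5 (0.10, adjusted p = 0.836). Calls that held in every removal were those of Foxd3, Snai1, Erbb3 and Wnt6. With the 6 libraries alone in limma the call of Foxd3 ended (0.0688), and of the crest list only 1 gene rose and 0 fell. Calls lost when 1 library was removed were those of Tfap2c (0.103 to 0.240 without B5 library 1 or 2 or R5 library 2 or 3), with the adjusted p in brackets. When the libraries of number 1 were left out, 3 crest genes rose and 0 fell, and 0 surface ectoderm genes rose and 1 fell.

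**Figure D3:**
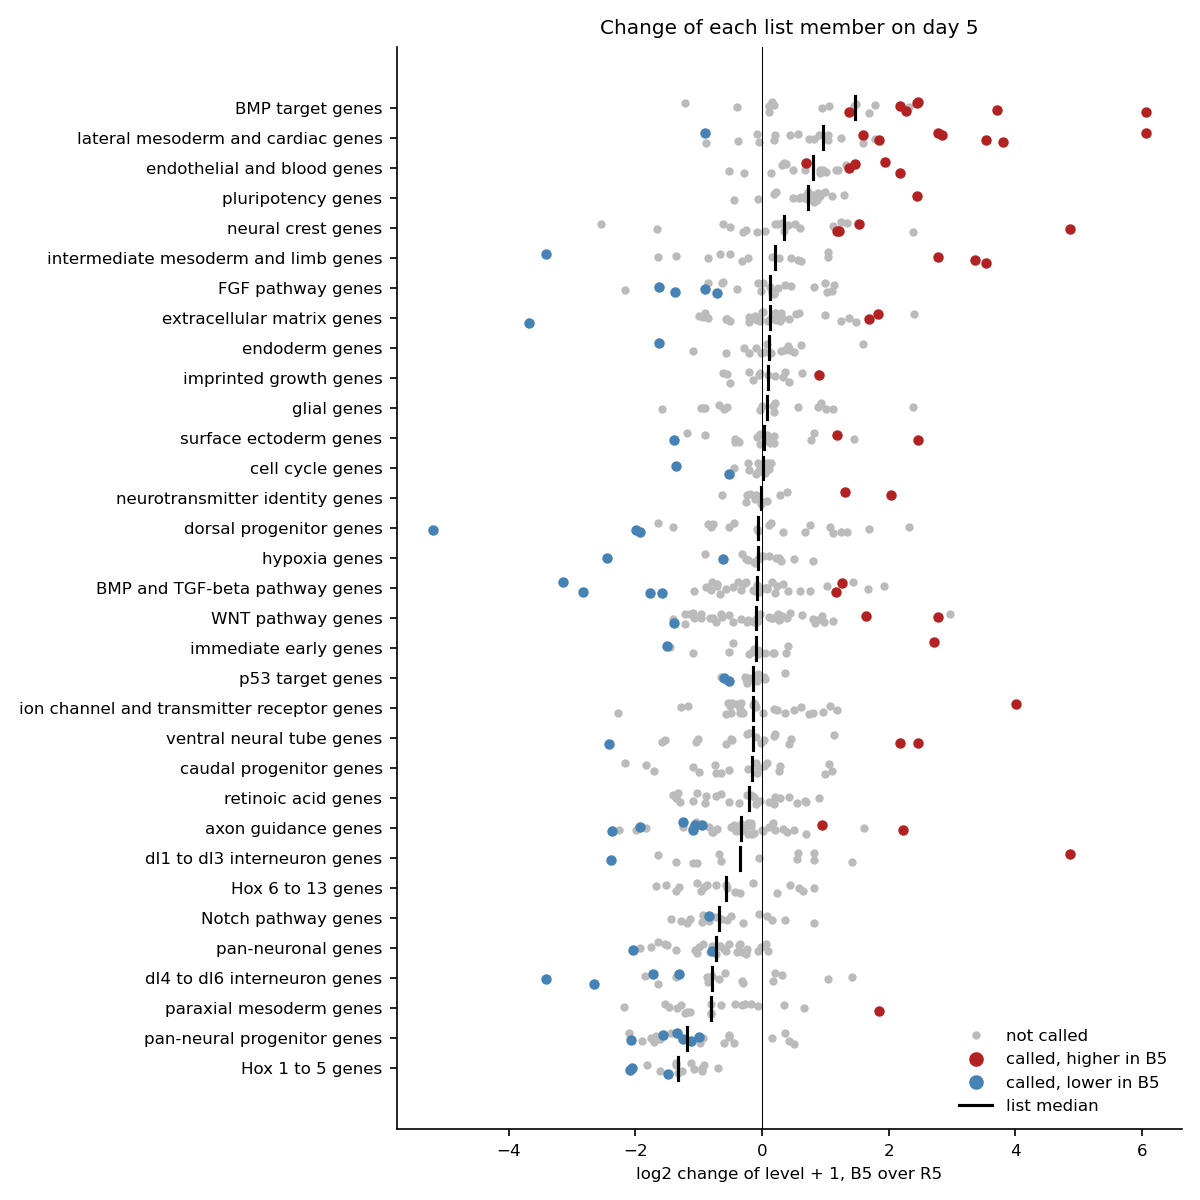
Log2 change of level + 1 in B5 over R5 (x axis) of each measured member of 33 gene lists, ordered by the list's median (black bar), with called genes in red where higher in B5 and blue where lower, and other members in grey. The BMP target list has the highest median (1.46) and the Hox 1 to 5 list the lowest (-1.33).

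Pan-neural progenitor genes fell in part. Of 24 genes, 0 rose and 6 fell, the median was -1.19 and 20 changes were negative. Sox3 (mm10 chromosome X, 60891366 to 60893430), a SoxB1 factor of neural progenitors, had 565, 609 and 1226 in B5, against 2969, 2580.2 and 4129 in R5 (log2 change -2.07, SE 0.48, adjusted p = 0.00798). Its highest B5 value, in library 3, lay well below the lowest R5 value. Nes, the intermediate filament gene of neural stem cells, had 3853, 2834 and 4160.1 in B5, against 6287, 8453 and 8885 in R5 (-1.13, adjusted p = 0.0112). Cdh2, which encodes N-cadherin, had 6508, 5019.7 and 11052 in B5, against 13115, 17559 and 25283 in R5 (-1.34, adjusted p = 0.0182). Msi1 (-1.25, adjusted p = 0.0392), an RNA-binding protein gene, Prom1 (-0.99, adjusted p = 0.0490), a stem cell surface protein gene, and Irx5 (-1.57, adjusted p = 0.0425), an Iroquois homeobox gene, fell as well. The other SoxB1 genes did not pass: Sox1 averaged 633 ± 237 in B5 and 1867 ± 296 in R5 (-1.61, adjusted p = 0.0809) and Sox2 averaged 4873 ± 554 in B5 and 6575 ± 286 in R5 (-0.44, adjusted p = 0.438). Pax6, a paired factor of intermediate progenitors, had 1217, 978 and 2599 in B5, against 3568, 4461 and 6720.3 in R5 (-1.70, adjusted p = 0.0789). In the authors' deposited test 11 genes of the list fell, and Sox1 and Pax6 passed (false discovery rates 0.0343 and 0.0444). Sox2 did not pass there (0.525). The summed level was 41572 to 76565 in B5 and 87688 to 157213 in R5. With 1 library removed, no longer called were Sox3 (0.0597 to 0.0632 without B5 library 2 or R5 library 3), Nes (0.0511 to 0.105 without B5 library 2 or R5 library 2 or 3) and Cdh2 (0.0534 to 0.159 without B5 library 1 or 2 or R5 library 2 or 3), with the adjusted p in brackets. Single-library removal ended the calls of Msi1 (0.0811 to 0.269 without B5 library 1 or 2 or R5 library 2 or 3), Prom1 (0.0647 to 0.274 without B5 library 1 or 2 or R5 library 1, 2 or 3) and Irx5 (0.0988 to 0.266 without B5 library 1 or 2 or R5 library 2 or 3). With libraries 2 and 3 of each group only, 0 rose and 3 fell.

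In the dorsal progenitor list, 2 homeobox genes of the intermediate end and a paired gene fell, and no roof plate gene was called. Of 23 genes, 0 rose and 3 fell, with a median of -0.060. Dbx1 (mm10 chromosome 7, 49631499 to 49636849), a homeobox factor of the progenitors on either side of the border between dorsal and ventral neural tube, had 65.5, 46.7 and 289 in B5, against 2651, 2326 and 7432 in R5 (log2 change -5.20, SE 0.95, adjusted p = 8.36e-04). The 2 groups were far apart, though the rule for naming the largest falls required separate groups. Library 3 was the highest in both. Dbx2 had 10.8, 28.8 and 39.5 in B5, against 84.5, 71.5 and 146 in R5 (-2.0, adjusted p = 0.0110). Pax7, a paired factor of dorsal progenitors, had 283, 235 and 912 in B5, against 1070.2, 1341 and 2324 in R5 (-1.92, adjusted p = 0.0446), whereas its relative Pax3 had 2790.0, 1523 and 7514 in B5, against 3303, 5832 and 8850.4 in R5 (-0.81, adjusted p = 0.665) with overlapping groups. Roof plate genes gave a median of 0.34 over 7 genes. Of these, Lmx1a had 2422, 889 and 2012 in B5, against 533, 1189 and 739.5 in R5 (1.07, adjusted p = 0.529) and the WNT ligand gene Wnt1 had 3314, 589 and 1835 in B5, against 244, 1476 and 956 in R5 (1.12, adjusted p = 0.683). The 3 Msx genes had a median of 1.69. Among proneural genes, Olig3 averaged 807 ± 493 in B5 and 324 ± 189 in R5 (1.34, adjusted p = 0.495) and Neurog1 911 ± 692 in B5 and 1551 ± 953 in R5 (-0.78, adjusted p = 0.711), and neither passed. Atoh1, the proneural gene of dI1 progenitors, had 19, 1.77 and 2.59 in B5, against 2.87, 9.93 and 2.53 in R5 (0.14, adjusted p = 0.963), a low level in both groups, and Gsx1, of dI4 and dI5 progenitors, had 13.3, 1.61 and 4.55 in B5, against 0.624, 1.94 and 2.28 in R5 (1.24, adjusted p = 0.358).

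Of 20 ventral neural tube genes, 2 rose and 1 fell, with a median of -0.15, against 2.76% risen and 3.23% fallen over all genes. The risen members were Gata2 and Gata3, which mark V2b interneurons and also blood and ectoderm, and the fallen one was Sim1, a V3 interneuron gene, with 18, 35.7 and 95.7 in B5, against 239, 186 and 228 in R5 (-2.42, adjusted p = 0.0300). Removing any 1 of the 6 libraries left Dbx1 called. Not called after removal of 1 library were Dbx2 (0.0997 to 0.103 without B5 library 1 or R5 library 3), Pax7 (0.0908 to 0.263 without B5 library 1 or 2 or R5 library 2 or 3) and Sim1 (0.0673 to 0.166 without B5 library 1 or 2 or R5 library 1, 2 or 3), with the adjusted p in brackets. Under quantile normalization the call of Sim1 (0.0511) ended. In the 4 libraries of numbers 2 and 3, 2 dorsal progenitor genes fell and 0 rose, and 0 ventral genes rose and 0 fell.

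Interneuron genes of the dI4 to dI6 classes fell in part, and 2 of the dI1 to dI3 genes were called on day 5. Of 19 dI4 to dI6 genes, 0 rose and 4 fell, with a median of -0.79. Pax2 (mm10 chromosome 19, 44756045 to 44837871), a paired factor of inhibitory interneurons, had 61.5, 39.2 and 106 in B5, against 529.9, 645 and 940.3 in R5 (log2 change -3.41, SE 0.55, adjusted p = 2.44e-04). All B5 values were well below the lowest R5 value, though the rule for naming the largest falls required separate groups. Prdm12 had 97.3, 51.3 and 68.4 in B5, against 259, 465 and 728 in R5 (-2.65, adjusted p = 0.0300), and it encodes a PR domain factor of intermediate progenitors and sensory neurons. Dmrt3, of dI6 interneurons, had 35.2, 38.6 and 34.8 in B5, against 136, 122 and 110.1 in R5 (-1.73, adjusted p = 0.0378), and Gbx1, of dI4 interneurons, had 51.7, 54.5 and 81.2 in B5, against 188, 107 and 178 in R5 (-1.31, adjusted p = 0.0472). Lhx1 averaged 355 ± 190.4 in B5 and 1035 ± 261 in R5 (-1.65, adjusted p = 0.204) and Lbx1 averaged 78.2 ± 18.3 in B5 and 138 ± 48.1 in R5 (-0.79, adjusted p = 0.504), without a call. Of 14 dI1 to dI3 genes, 1 rose and 1 fell: Foxd3 rose, and Otp, a homeobox gene, fell with 19.4, 2.6 and 3.87 in B5, against 15.3, 40.9 and 74 in R5 (-2.39, adjusted p = 0.0444) and with groups that overlap. No single removal ended the call of Pax2. The call ended with 1 library left out for Prdm12 (0.0531 to 0.172 without B5 library 1 or 2 or R5 library 2 or 3), Dmrt3 (0.0629 to 0.125 without B5 library 1, 2 or 3 or R5 library 1, 2 or 3) and Gbx1 (0.124 to 0.195 without B5 library 1 or 2 or R5 library 1 or 3), with the adjusted p in brackets. Leaving out 1 library ended the calls of Otp (0.103 to 0.269 without B5 library 2 or 3 or R5 library 2 or 3). Quantile normalization ended the call of Gbx1 (0.102). Without the libraries of number 1, 3 dI4 to dI6 genes fell and 0 rose, and among dI1 to dI3 genes 1 rose and 2 fell.

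Pan-neuronal genes had mostly negative changes, of which few passed. Of 33 measured genes (of 35), 0 rose and 2 fell, 31 changes were negative and the median was -0.73. Gap43 (mm10 chromosome 16, 42248442 to 42340651), a growth cone protein gene, had 304, 239.8 and 259 in B5, against 1077, 1031 and 1176 in R5 (log2 change -2.03, SE 0.25, adjusted p = 1.24e-05). Its libraries agreed closely within each group. Elavl2, an RNA-binding protein gene of young neurons, had 794, 751 and 1185 in B5, against 1176, 1550.0 and 2033 in R5 (-0.80, adjusted p = 0.0195), with groups that overlap. The summed level of the list was 5070.1 to 15153 in B5 and 7436 to 17379 in R5, so that the B5 library of number 1 lay among the R5 libraries. Stmn4, a stathmin gene of neurons, had 85.1, 20.7 and 24.1 in B5, against 101, 426 and 340.0 in R5 (-2.77, adjusted p = 0.0395), and Chrna3, a nicotinic receptor subunit gene, had 131, 38.1 and 109 in B5, against 315, 646 and 931 in R5 (-2.80, adjusted p = 0.0422). Both were among the 12 largest falls. With each library left out in turn, Gap43 stayed called. Calls lost when 1 library was removed were those of Elavl2 (0.0603 to 0.187 without B5 library 1 or 2 or R5 library 2 or 3), Stmn4 (0.0897 to 0.211 without B5 library 2 or 3 or R5 library 2 or 3) and Chrna3 (0.0619 to 0.253 without B5 library 1 or 2 or R5 library 2 or 3), with the adjusted p in brackets. When the libraries of number 1 were left out, 4 pan-neuronal genes fell and 0 rose.

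The remaining large falls were those of genes of several kinds. Vit, which encodes the matrix protein vitrin, had 18, 5.15 and 22.7 in B5, against 93.6, 197 and 307 in R5 (log2 change -3.67, SE 0.65, adjusted p = 5.90e-04). Slco1a5, an organic anion transporter gene, had 5.37, 3.44 and 2.25 in B5, against 39.2, 32.4 and 27.2 in R5 (log2 change -2.90, SE 0.37, adjusted p = 1.24e-05). Agtr1a, an angiotensin receptor gene, had 107, 94.2 and 259.7 in B5, against 937, 799 and 1193 in R5 (log2 change -2.79, SE 0.44, adjusted p = 2.08e-04). In all of these the groups were separate, which the rule for naming them required. Hmx2, a homeobox gene of ear and interneurons, had 29.3, 30.0 and 45.9 in B5, against 177, 293 and 198 in R5 (-2.63, adjusted p = 0.0163). The transcript 2610034M16Rik had 25.4, 19.9 and 49.7 in B5, against 121, 187 and 288 in R5 (-2.63, adjusted p = 7.88e-04). Each of the 6 removals kept Vit, Slco1a5, Agtr1a and 2610034M16Rik called. With the 6 libraries alone in limma the calls of Vit (0.0631) and 2610034M16Rik (0.0627) ended, and those of Slco1a5 and Agtr1a stayed. With 1 library removed, no longer called were Hmx2 (0.0581 to 0.0822 without B5 library 1 or 2 or R5 library 2 or 3), with the adjusted p in brackets.

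Anterior Hox genes fell in part. All 15 Hox 1 to 5 genes had a negative change, with a median of -1.33, and 3 passed. Hoxb4 had 815, 582 and 1316 in B5, against 2076, 2209 and 3036 in R5 (-1.49, adjusted p = 0.0288), Hoxd4 had 823, 541 and 2187 in B5, against 3229, 3112 and 7052 in R5 (-2.06, adjusted p = 0.0332) and Hoxd3 had 791, 379.6 and 1748 in B5, against 2222, 3059.9 and 5875 in R5 (-2.08, adjusted p = 0.0447). For each, library 3 was the highest in both groups. Their summed level was 12215 to 36895 in B5 and 43969 to 75286 in R5. Of 19 measured Hox 6 to 13 genes 0 passed, with a median of -0.58. None of 26 genes of RA synthesis, breakdown and response passed, with a median of -0.20. Cyp26a1, which degrades RA, had 626, 760.0 and 1771 in B5, against 2435, 1269.8 and 2676 in R5 (-1.10, adjusted p = 0.281), and the RA receptor gene Rarb had 2112, 896 and 2869.5 in B5, against 2615, 5013 and 7832 in R5 (-1.41, adjusted p = 0.252). None of 20 caudal progenitor genes passed, with a median of -0.16, and T, which encodes Brachyury, had 15.8, 45.1 and 53.6 in B5, against 166, 41.9 and 46.6 in R5 (-1.0, adjusted p = 0.639). Single-library removal ended the calls of Hoxb4 (0.0660 to 0.204 without B5 library 1 or 2 or R5 library 2 or 3), Hoxd4 (0.0568 to 0.237 without B5 library 1 or 2 or R5 library 2 or 3) and Hoxd3 (0.0922 to 0.301 without B5 library 1 or 2 or R5 library 2 or 3), with the adjusted p in brackets. With libraries 2 and 3 of each group only, 0 Hox 1 to 5 genes fell.

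In other signalling pathways a few members were called, where 2.76% of all genes rose and 3.23% fell. The small counts are not read as a result about a pathway. Of 46 measured WNT pathway genes, 2 rose and 1 fell, with a median of -0.090. The WNT ligand gene Wnt2 had 93.5, 41.8 and 57.4 in B5, against 6.91, 14.1 and 5.09 in R5 (log2 change 2.78, SE 0.56, adjusted p = 0.00233), and Notum, a secreted WNT inhibitor, had 251, 399 and 251 in B5, against 119, 119.6 and 56.5 in R5 (1.64, adjusted p = 0.0129). Wnt6 was the fallen member. Of 25 FGF pathway genes, 0 rose and 4 fell, with a median of 0.13. They were the ligand Fgf5, at 39.2, 18.6 and 13.8 in B5, against 49.4, 71.6 and 53.8 in R5 (-1.37, adjusted p = 0.0162), the receptor Fgfr3, at 928, 494 and 1312 in B5, against 1803, 2569 and 3899.8 in R5 (-1.64, adjusted p = 0.0311), the feedback inhibitor Spry1 (-0.71, adjusted p = 0.0149) and the intracellular Fgf13 (-0.90, adjusted p = 0.0278). Of 18 measured Notch pathway genes, 0 rose and 1 fell, with a median of -0.68, and the fallen gene was the ligand Jag1, at 449, 369.6 and 470.5 in B5, against 666, 822 and 809.6 in R5 (-0.83, adjusted p = 0.0112). The call of Wnt2 held in all 6 removals. Not called after removal of 1 library were Notum (0.111 to 0.140 without B5 library 2 or R5 library 3), Fgf5 (0.0540 to 0.101 without B5 library 2 or 3 or R5 library 2 or 3) and Fgfr3 (0.0691 to 0.242 without B5 library 1 or 2 or R5 library 2 or 3), with the adjusted p in brackets. The call ended with 1 library left out for Spry1 (0.0654 to 0.0766 without B5 library 2 or R5 library 2 or 3), Fgf13 (0.0681 to 0.156 without B5 library 1 or 2 or R5 library 1 or 3) and Jag1 (0.0541 to 0.0952 without B5 library 2 or R5 library 2 or 3). The call of Fgf13 (0.0549) also ended under quantile normalization. In the 4 libraries of numbers 2 and 3, 2 WNT genes rose and 3 fell, and 3 FGF genes fell.

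Axon guidance genes were called in both directions. For this and the other lists of this paragraph, the shares over all genes were 2.76% risen and 3.23% fallen. Of 42 genes, 2 rose and 6 fell, with a median of -0.33. Ntn1, the floor plate and progenitor cue netrin, had 678, 935 and 914 in B5, against 3469.6, 3141 and 2985 in R5 (log2 change -1.94, SE 0.32, adjusted p = 2.87e-04). Of its receptors, Unc5a had 956, 516 and 1073 in B5, against 2798, 4103 and 6319 in R5 (log2 change -2.36, SE 0.46, adjusted p = 0.00150), whereas Unc5b, also known from endothelium, had 4396, 4739.9 and 3367 in B5, against 1014, 847 and 802 in R5 (log2 change 2.22, SE 0.39, adjusted p = 5.19e-04). The receptor genes Unc5a and Unc5b thus moved in opposite directions, with separate groups for each. Sema3b averaged 206 ± 26.3 in B5 and 396 ± 47.8 in R5 (-0.94, adjusted p = 0.00372). Of 37 measured matrix genes, 2 rose and 1 fell: Col13a1, a transmembrane collagen gene, had 429, 326 and 265 in B5, against 79.3, 114 and 89.5 in R5 (1.83, adjusted p = 1.24e-05), Lama2, a laminin chain gene, averaged 56.5 ± 30.3 in B5 and 15.8 ± 4.32 in R5 (1.68, adjusted p = 0.00655), and Vit fell. Of 30 ion channel and receptor genes, 1 rose and 0 fell, the risen one being Grin2c. Of 13 transmitter identity genes, 2 rose and 0 fell. These were Ddc, which makes dopamine and serotonin from their precursors, with 817, 638 and 305 in B5, against 98, 190.0 and 120.0 in R5 (2.04, adjusted p = 0.0219), and Slc5a7, the choline transporter gene, with 30.3, 50.3 and 75.6 in B5, against 22.6, 19.7 and 15.6 in R5 (1.31, adjusted p = 0.0460). Calls that held in every removal were those of Ntn1, Unc5a, Unc5b, Sema3b and Col13a1. Leaving out 1 library ended the calls of Lama2 (0.0738 without B5 library 1), Ddc (0.0733 to 0.116 without B5 library 1 or 2 or R5 library 1 or 3) and Slc5a7 (0.0589 to 0.202 without B5 library 2 or 3 or R5 library 1, 2 or 3), with the adjusted p in brackets. Quantile normalization ended the call of Slc5a7 (0.103). Without the libraries of number 1, of the guidance genes 1 rose and 6 fell, and of the matrix genes 1 rose and 1 fell.

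Lists for cell state, and those of the next paragraph, gave few calls, against 2.76% risen and 3.23% fallen over all genes. Of 21 measured cell cycle genes, 0 rose and 2 fell, and the median was 0.010. Ccnd2, a D cyclin gene of progenitors, had 10612, 8868 and 18835 in B5, against 24739, 27670.2 and 43275 in R5 (-1.35, adjusted p = 0.0138), and the cell cycle inhibitor gene Cdkn1a, also counted among p53 targets, had 2789.6, 2286 and 2579 in B5, against 3716, 3890.3 and 3412 in R5 (-0.53, adjusted p = 0.00628). Of 14 p53 targets, 0 rose and 2 fell, with a median of -0.14, and the other fallen gene was Bbc3, which promotes apoptosis (-0.61, adjusted p = 1.06e-04). Of 16 immediate early genes, 1 rose and 1 fell: Egr2 had 51.3, 28.5 and 13 in B5, against 3.18, 8.47 and 0.912 in R5 (2.72, adjusted p = 0.0169) and Atf3 had 317, 315 and 413 in B5, against 1167, 951 and 852 in R5 (-1.50, adjusted p = 4.20e-04). Of 17 hypoxia genes, 0 rose and 2 fell, namely Edn1, which encodes a vasoconstrictor peptide (-2.45, adjusted p = 0.0101), and Pfkfb3, a glycolysis regulator (-0.63, adjusted p = 0.0333). Of 15 imprinted growth genes, 1 rose, the clearance receptor Igf2r (0.90, adjusted p = 0.0112).

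Of 21 pluripotency genes, 1 rose and 0 fell, with a median of 0.72 and 19 positive changes, and the called gene, Tbx3, belongs to the BMP targets and heart as well. Of 20 paraxial mesoderm genes, 1 rose and 0 fell, with a median of -0.80, and the called gene was Tbx18. Of 18 endoderm genes, 0 rose and 1 fell, the chemokine receptor Cxcr4 (-1.62, adjusted p = 0.0302), and of 18 glial genes 0 passed. Removing any 1 of the 6 libraries left Bbc3 and Atf3 called. Calls lost when 1 library was removed were those of Ccnd2 (0.0632 to 0.129 without B5 library 1 or 2 or R5 library 3), Cdkn1a (0.0701 without B5 library 2) and Egr2 (0.0767 to 0.157 without B5 library 1 or 2 or R5 library 3), with the adjusted p in brackets. With 1 library removed, no longer called were Edn1 (0.0664 to 0.0858 without B5 library 2 or R5 library 2), Pfkfb3 (0.0539 to 0.309 without B5 library 1 or 2 or R5 library 1, 2 or 3) and Igf2r (0.0549 to 0.0960 without B5 library 1 or R5 library 1). Single-library removal ended the calls of Cxcr4 (0.0521 to 0.259 without B5 library 1 or 2 or R5 library 2 or 3), Tbx3 (0.0677 to 0.133 without B5 library 1 or 2 or R5 library 1, 2 or 3) and Tbx18 (0.118 to 0.175 without B5 library 1 or 2 or R5 library 1 or 3). Quantile normalization ended the call of Tbx18 (0.0514).

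R4, the cultures at the end of the first 24 h of RA, gives the level from which both day 5 groups started. The values below share libraries with B5 against R5 and are given side by side. The risen and fallen genes were chosen by that comparison, so the choice fixed the order of B5 and R5 within each set. Opposite signs of the medians over R4 can come from that choice. Whether they do was not tested, and no direction of change is drawn from the medians. Over the risen genes the median log2 change was 0.54 for B5 over R4 and -0.32 for R5 over R4, and over the fallen genes it was -0.31 for B5 over R4 and 0.50 for R5 over R4. Dbx1 had 65.5, 46.7 and 289 in B5 and 2651, 2326 and 7432 in R5, against 131, 163 and 406 in R4. Its level thus lay near or below that of R4 in B5, and above it in R5 (log2 change -1.09 for B5 and 4.12 for R5, over R4). Likewise R5 lay above R4 and B5 nearer to it for Vit (0.46 and 4.14), Slco1a5 (-0.20 and 2.69), Agtr1a (-0.24 and 2.55) and Prdm12 (-0.047 and 2.60). Gap43 was below R4 in both groups (-2.97 and -0.94). Hand1 had 22, 37.7 and 15.3 in R4, and its change over R4 was 5.39 in B5 and -0.68 in R5. For Smad9 these changes were 2.76 and -0.95, for Foxd3 4.33 and -0.54, and for Gata5 3.91 and 0.11. The B5 levels of these risen genes were thus above R4, in genes that were chosen for a higher level in B5 than in R5.

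On day 7, in cultures of the same treatments, part of the day 5 pattern was seen again in other libraries. B7 against R7 called 2661 genes (23.7%), of which 1360 (12.1%) rose and 1301 (11.6%) fell. Of the 310 genes risen on day 5, 127 rose on day 7 (41.0% of the day 5 list and 9.34% of the day 7 list) and 6 fell. Of the 362 fallen, 183 fell on day 7 (50.6% and 14.1% of the lists) and 8 rose. Foxd3 had 1043, 664 and 681 in B7, against 39, 47.7 and 8.92 in R7 (4.86, adjusted p = 1.36e-04), and Shox2 had 302, 300.4 and 261 in B7, against 11.7, 26.4 and 5.7 in R7 (4.44, adjusted p = 4.67e-06). Dbx1 had 33.5, 30.2 and 10.4 in B7, against 892, 604 and 1147 in R7 (-5.21, adjusted p = 2.84e-04), and Pax2 had 47.1, 69.1 and 67.5 in B7, against 833, 784 and 599 in R7 (-3.58, adjusted p = 2.95e-05). For these genes the direction and rough size of day 5 were seen again. On day 9 the change of B9 over R9 was 2.88 for Foxd3 (adjusted p = 0.0229), 3.30 for Shox2 (adjusted p = 4.29e-04), -2.98 for Dbx1 (adjusted p = 0.0365) and -2.67 for Pax2 (adjusted p = 0.00181).

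The difference between the day 7 and the day 5 effect was tested in the same fit, and 223 genes (1.99%) passed, 143 with a higher and 80 with a lower effect on day 7. Hand1 was one of them: it had 16.8, 13.9 and 18.5 in B7, against 6.17, 10.0 and 12.4 in R7 on day 7, and its effect was lower than on day 5 (difference -5.30 log2 units, SE 1.28, adjusted p = 0.0211). The B7 values lay just above the R7 values. Rgs5 had 27, 10.7 and 13.1 in B7, against 6.2, 3.82 and 1.58 in R7 (difference -3.43, adjusted p = 0.0310). For some neural genes the difference was positive. Prdm12 had 321, 347 and 339 in B7, against 62.3, 80.4 and 36.8 in R7, higher in B7, whereas it was lower in B5 (difference 5.19, adjusted p = 0.00480). Gap43 had 1158, 1642 and 1545 in B7, against 1121, 1139.6 and 1024 in R7 (difference 2.42, adjusted p = 2.20e-04), and Elavl2 and Fgf5 differed in the same sense (differences 1.16 and 2.33, adjusted p = 0.0308 and 0.00659). The difference for Smad9 was -2.47 (adjusted p = 0.323) and did not pass. Each of these differences contains the B5 over R5 effect, and Hand1, Rgs5 and Prdm12 were named for a large one. That choice favours a smaller effect on day 7. Among dI1 to dI3 genes 10 of 14 rose and 1 fell on day 7, against 1 risen and 1 fallen on day 5. Among pan-neuronal genes 7 of 33 rose and 1 fell on day 7. Other neural lists went otherwise on day 7. Of 19 dI4 to dI6 genes 5 rose and 7 fell, and of 24 pan-neural progenitor genes 0 rose and 10 fell. Over all genes 12.1% rose and 11.6% fell on day 7, against 2.76% and 3.23% on day 5. The number of genes whose effects differed fell to 109 without R5 library 2 and was 122 to 140 without B5 library 2, B5 library 3, R7 library 3 or B7 library 3. With each of the 12 libraries left out in turn the difference stayed called for Prdm12, Gap43 and Fgf5. It was lost with 1 library removed for Hand1 (up to 0.0705 without R7 library 3 or B5 library 2 or R5 library 2), Rgs5 (up to 0.0867 without B7 library 2 or 3 or R7 library 1 or 2 or B5 library 1 or 2 or R5 library 1, 2 or 3) and Elavl2 (up to 0.116 without B7 library 2 or 3 or R7 library 3 or B5 library 1 or 2 or R5 library 2 or 3), with the highest adjusted p in brackets.

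**Figure D4:**
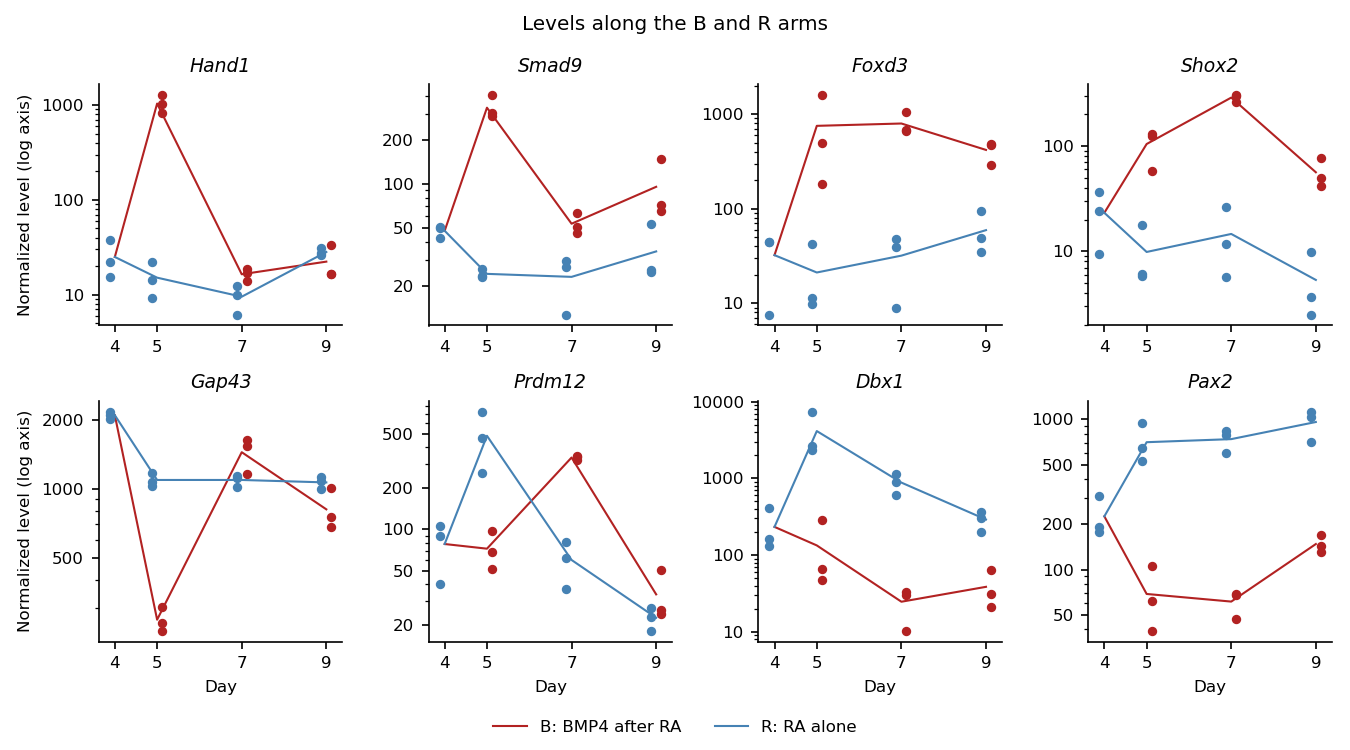
Normalized level (y axis, log scale, no stated unit) by day (x axis) of 8 genes in the B cultures (red, BMP4 after RA) and the R cultures (blue, RA alone), 1 point per library and a line through the means, both arms starting from the R4 libraries of day 4. The B5 mean of Hand1 is 1039 and its B7 points lie between 13.9 and 18.5, whereas Foxd3 and Shox2 stay above, and Dbx1 and Pax2 below, the R points on days 5, 7 and 9.

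**Figure D5:**
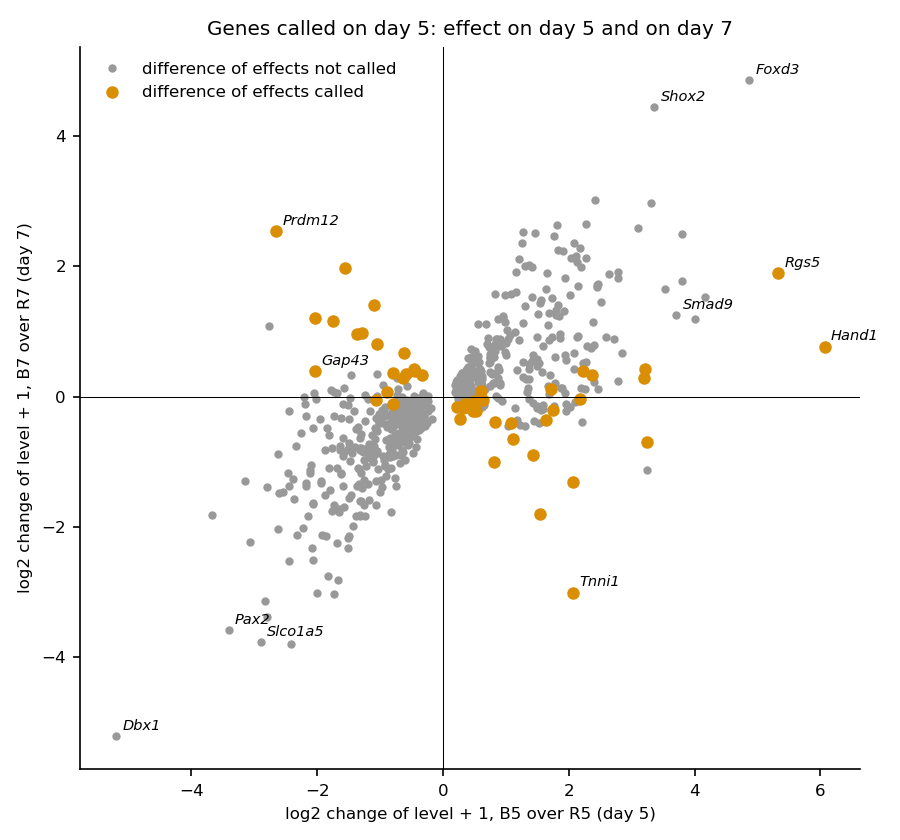
Log2 change of level + 1 in B7 over R7 (y axis) against B5 over R5 (x axis) for the 672 genes called on day 5, with orange points where the difference of the 2 effects passed. Dbx1 (-5.20 and -5.21) and Foxd3 (4.87 and 4.86) lie near the diagonal, Hand1 (6.07 and 0.77) lies far from it, and Prdm12 lies in the quadrant of opposite signs.

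B6hr and R6hr were sampled 6 h into the BMP4 pulse, and their libraries went against the labels. Smad9 had 13.4, 198 and 322 in B6hr, against 12.5, 181 and 446 in R6hr, and Hand1 had 7.41, 133 and 259 in B6hr, against 5.05, 206 and 359 in R6hr. In both groups the library of number 1 was low and numbers 2 and 3 were high, so BMP target levels followed the number and not the label. The differences below are thus between libraries labelled B6hr and R6hr, and carry that limit. The effect of B5 over R5 differed from that of the libraries labelled B6hr over those labelled R6hr for 59 genes (0.526%). Of these, 42 had a positive and 17 a negative difference. Hand1 (difference 6.27, adjusted p = 0.0151), Rgs5 (5.58, adjusted p = 0.00102), Wnt2 (3.76, adjusted p = 0.0223), Unc5b (2.29, adjusted p = 0.0440) and Snai1 (1.65, adjusted p = 0.0335) had a positive difference. Ntn1 (-2.20, adjusted p = 0.0151) and Gap43 (-1.56, adjusted p = 0.0348) had a negative one. Each difference contains the B5 over R5 effect, which was 6.07 for Hand1 and 5.33 for Rgs5. These values come from the fit without a replicate block, although libraries of the same number in B6hr and R6hr deviated together. With the number as a block, 49 genes passed over all libraries, without Unc5b (adjusted p = 0.0506), and 0 among the 4 groups compared, where the adjusted p of these 7 genes was 0.0661 to 0.409 in limma and 1017 genes had an unadjusted p under 0.05. With the block in the 6 h groups only, chosen after the data were seen, 134 passed, and all 7 genes were among them (6.48e-09 to 0.00476). The count thus depends on the block. With the 6 h libraries of number 1 alone 8 genes passed, without them 49, and with 1 library left out between 11 (without B6hr library 1) and 139 (without R6hr library 1). With each of the 12 libraries left out in turn the difference stayed called for Rgs5. It was lost with 1 library removed for Hand1 (up to 0.116 without R5 library 2 or B6hr library 1 or R6hr library 2 or 3), Wnt2 (up to 0.116 without B5 library 1 or R5 library 1 or 3 or B6hr library 1 or 2 or R6hr library 2 or 3), Unc5b (up to 0.239 without B5 library 1, 2 or 3 or R5 library 1, 2 or 3 or B6hr library 1 or 2 or R6hr library 2 or 3), Snai1 (up to 0.149 without B5 library 1 or 2 or R5 library 1, 2 or 3 or B6hr library 1 or 2 or R6hr library 2 or 3), Ntn1 (up to 0.116 without B5 library 1 or B6hr library 1 or R6hr library 3) and Gap43 (up to 0.197 without B5 library 1, 2 or 3 or R5 library 1, 2 or 3 or B6hr library 1 or 2 or R6hr library 2 or 3), with the highest adjusted p in brackets.

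BMP4 given together with RA from day 3 for the same 24 h offers a matched duration in other libraries. M4 against R4 called 1586 genes (14.1%), with 759 risen (6.76%) and 827 fallen (7.37%). Of the genes risen in B5 over R5, 151 rose there (48.7% of the 310 and 19.9% of the 759) and 8 fell, and of those fallen, 168 fell (46.4% of the 362 and 20.3% of the 827) and 2 rose. Hand1 had 3316, 4394 and 2975 in M4, against 22, 37.7 and 15.3 in R4 (7.17, adjusted p = 1.41e-06), Smad9 787, 385 and 518 in M4, against 42.5, 50.9 and 49.5 in R4 (3.48, adjusted p = 0.00313) and Id1 8663, 5271 and 6130.1 in M4, against 1472, 1388 and 1554 in R4 (2.15, adjusted p = 1.61e-04). Thus these BMP targets and Hand1 were higher under both regimes. Foxd3 had 41.6, 28.2 and 13.1 in M4, against 44.8, 7.59 and 44.4 in R4 (-0.010, adjusted p = 0.997), and the difference between the effects after and with RA was 4.88 (adjusted p = 0.0276). Shox2 had 13.9, 11.3 and 12.6 in M4, against 24, 9.39 and 36.2 in R4 (difference 4.01, adjusted p = 0.00713), Pax2 241, 112 and 383 in M4, against 191, 310.1 and 177 in R4 (difference -3.40, adjusted p = 0.0159) and Wnt6 1206, 714 and 883 in M4, against 211, 268 and 184 in R4 (difference -3.45, adjusted p = 2.30e-09). In all, 127 genes (1.13%) had effects that differed. These groups also differ in day and in the length of RA, which cannot be told apart from the order of the factors.

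M5 cultures, with 48 h of both factors, share R5 as their control with B5, so the 2 comparisons are given side by side only. For Hand1 the level was 5262, 6606 and 5277 in M5 and the change over R5 was 8.54 in M5 and 6.07 in B5. For Tbx20 these changes were 6.19 and 2.84, for Sox3 -4.30 and -2.07, for Dbx1 -8.42 and -5.20, and for Hoxd4 -4.43 and -2.06. Directly compared, M5 over B5 was 3.35 for Tbx20 (adjusted p = 2.72e-04), -2.22 for Sox3 (adjusted p = 0.00129), -3.06 for Shox2 (adjusted p = 3.69e-04) and -0.16 for Id1 (adjusted p = 0.834).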

How the data were processed

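The authors deposited 1 table of 11220 genes with a normalized level (treated as a signal) for each of 45 libraries, with no unit in the file header. The levels are not counts: 0 are exactly 0 and 1 is exactly whole, so the read depth is unknown. Per the labels' protocols, a NuGEN kit for mRNA was used and the sequencing ran on a NovaSeq with a stated aim of 30 M reads per sample. The submitters' processing notes name Picard, edgeR and mm10 with no role. Neither aligner nor counter nor annotation is named (not given in the sources used here). Also deposited by the authors are log2 fold changes (R5 over B5, the reverse of the direction used here, slope 1.041 in size on the ratio of levels), p-values and false discovery rates over 16014 genes. The authors also deposited fpkm columns, here held to be a score and left unused, since they equal the level to the power 0.3 times constants (residual SD 0.0008 on the log2 scale). The rank column was not used either. Symbols had turned into dates for 22 genes, and identifiers gave back 19 of them.

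Levels were tested as log2(level + 1) with limma-trend (limma 3.58.1, R 4.3.3, robust setting), fitting all 45 libraries with 1 coefficient for each group. A test for counts had been planned in case the file held counts, which it does not. P-values were adjusted by Benjamini-Hochberg over all 11220 genes and called under 0.05. The authors had listed these genes, out of 16014 tested, from comparisons that include R5 with B5. The adjustment and the shares called thus rest on a set chosen in part from the same libraries. Adjusted over 16014 genes, 510 were called. Requiring level 1 in 3 or more libraries removed 0 genes. Fold changes on this scale understate those of low genes. The members and the 33 gene lists were chosen with earlier results of these data known. The rule for named genes took up to 12 risen and up to 12 fallen genes by size of change, if called, with separate groups and a higher group mean of 5 or more, up to 4 called members per list with the smallest adjusted p, and preset markers. For differences of effects they are up to 5 in each direction. Further called list members (such as Acvrl1, Esam, Prrx2, Prom1 and Irx5), Dcx, Cdx2 and genes named for other reasons were chosen after their values were seen. Some genes that the rule names are not reported here. In simulated data of 11220 genes for B5 against R5, 63% of 2-fold and 84% of 4-fold changes were found again and 6 calls were false. The simulated noise was independent between genes and libraries, with the same SD per gene in all groups. Deviations that many genes of a library share were not in it, so these figures may not hold for the real libraries. Coordinates are whole genes of GENCODE M21 on mm10, matched for 10766 genes. Replicate numbers were taken to pair B6hr with R6hr, from the data and not the labels: deviations from the group means of same-numbered libraries correlated at 0.586, 0.189 and 0.465 and those of different numbers at most at 0.146. Alternatives were a replicate block, each library left out, the compared libraries alone, other pseudocounts, filters, thresholds, array weights and quantile normalization, and, added after seeing the data, sets of libraries left out. Python 3.11.15, pandas 2.3.3 and matplotlib 3.10.9 made tables and plots.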

Additional observations from a re-analysis of the deposited data

Results flagged for a closer look

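Effects that differed between 2 times, by the test of the difference itself, are listed here. In the 6 h groups the BMP target levels followed the replicate number and not the label. Whether those groups hold a 6 h effect of BMP4 was therefore not tested. For the B7 over R7 effect minus the B5 over R5 effect, the largest positive difference among the genes named was that of Barhl2. Barhl2, a homeobox gene of dI1 interneurons, had 114, 165 and 431 in B7, against 8.61, 10.5 and 0.916 in R7, and 30.6, 1.31 and 3.7 in B5, against 4.88, 29.7 and 14.9 in R5, a difference of 6.11 (adjusted p = 0.0206). Kcnmb2, a potassium channel subunit gene, differed by 5.51 (adjusted p = 0.00529), Dbh, which makes noradrenaline, by 5.32 (adjusted p = 0.00261), and Upk3b, a mesothelial and urothelial gene, by 5.27 (adjusted p = 0.0228). Prdm12 differed by 5.19 (adjusted p = 0.00480), Gap43 by 2.42 (adjusted p = 2.20e-04), Fgf5 by 2.33 (adjusted p = 0.00659), Pfkfb3 by 1.29 (adjusted p = 0.00374) and Elavl2 by 1.16 (adjusted p = 0.0308). Negative differences were those of Hand1, -5.30 (adjusted p = 0.0211), Tnni1, a slow troponin gene, -5.07 (adjusted p = 1.97e-04), Acsbg1, an acyl-CoA synthetase gene, -3.71 (adjusted p = 0.00493), and Rgs5, -3.43 (adjusted p = 0.0310). Tnni1 had 9.2, 14.3 and 15.7 in B7, against 101, 215 and 60.4 in R7, and 54.4, 27 and 23.7 in B5, against 5.77, 5.84 and 10.2 in R5. Its order thus turned between the days. All 12 single removals kept the difference for Kcnmb2, Dbh, Pfkfb3, Tnni1 and Acsbg1. A single removal was enough to lose it for Barhl2 (up to 0.0888 without B7 library 3 or R7 library 3 or B5 library 2 or 3 or R5 library 2) and Upk3b (up to 0.103 without B7 library 1 or R7 library 3 or B5 library 2 or 3 or R5 library 2), with the highest adjusted p in brackets.

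For the B5 over R5 effect minus that of the libraries labelled B6hr over those labelled R6hr, differences were positive for Hand1, 6.27 (adjusted p = 0.0151), Rgs5, 5.58 (adjusted p = 0.00102), Npbwr1, a neuropeptide receptor gene, 4.78 (adjusted p = 4.53e-04), Wnt2, 3.76 (adjusted p = 0.0223), Unc5b, 2.29 (adjusted p = 0.0440), Col13a1, 1.86 (adjusted p = 0.00480), and Snai1, 1.65 (adjusted p = 0.0335). They were negative for Synpo2l, an actin-associated gene, -2.75 (adjusted p = 0.00998), Ntn1, -2.20 (adjusted p = 0.0151), 1600027J07Rik, -2.19 (adjusted p = 0.0431), Gap43, -1.56 (adjusted p = 0.0348), Adamts8, a matrix protease gene, -1.53 (adjusted p = 0.00480), and Bbc3, -0.57 (adjusted p = 0.0335). BMP target levels of the 6 h libraries followed the replicate number (Smad9 had 13.4, 198 and 322 in B6hr, against 12.5, 181 and 446 in R6hr), and the part of this in the differences was not tested. The adjusted p-values are of the fit without a replicate block. With the block over all libraries the differences of Unc5b (adjusted p = 0.0506) and 1600027J07Rik (adjusted p = 0.0506) were no longer called, with it among the 4 groups compared none of these 13 was (0.0661 to 0.409 in limma), and with it in the 6 h groups only all 13 were (6.48e-09 to 0.0275). All 12 single removals kept the difference for Npbwr1, Col13a1 and Adamts8. A single removal was enough to lose it for Synpo2l (up to 0.0792 without R6hr library 3), 1600027J07Rik (up to 0.127 without B5 library 1 or 3 or R5 library 2 or 3 or B6hr library 1, 2 or 3 or R6hr library 1, 2 or 3) and Bbc3 (up to 0.197 without B5 library 1, 2 or 3 or R5 library 1 or 2 or B6hr library 1 or 2 or R6hr library 3), with the highest adjusted p in brackets.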

How the results depend on the processing

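The number of genes called in B5 against R5, 672, was within 1.5 times with a replicate block over all libraries (624), pseudocounts of 0.1 and 5 (668 and 711), no filter, a mean level of at least 10, quantile normalization (736), the authors' deposited test, an adjustment over all genes the authors tested (510) and without the groups D0, D3, R6hr and B6hr (872). It moved further with the 6 compared libraries alone, to 97 (52 risen, 45 fallen), with array weights, to 2196 (856 risen, 1340 fallen), at an adjusted p of 0.01, to 212 (109 risen, 103 fallen), at 0.1, to 1160 (526 risen, 634 fallen), and without the libraries of number 1, to 422 (149 risen). With 1 library left out it ranged over 196 to 897 (112 to 414 risen, 84 to 483 fallen). The cause of these shifts was not tested, other than that the 6-library fit has fewer libraries.

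Replicate numbers did not pair B5 with R5: deviations from the group means correlated at -0.577, -0.375 and 0.307 for the numbers 1 to 3, against -0.51 to 0.647 between different numbers. A replicate block within the 6 libraries left 2 (1 risen, 1 fallen). For B7 and R7 these correlations were -0.229, -0.209 and -0.532.

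The 223 genes whose effect differed between day 7 and day 5 became 143 with the compared libraries alone, 60 with a replicate block among them, 83 at 0.01, 374 at 0.1, 1134 with array weights, 354 without the 4 other groups and 109 to 276 with 1 library left out. The 59 genes whose effect differed from the 6 h libraries became, in the same order, 20, 0 (limma with the block; 1017 genes had an unadjusted p under 0.05), 14, 138 and 571, 8 with the 6 h libraries of number 1 alone, 134 with a replicate block in the 6 h groups only, and 11 to 139 with 1 library left out.

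Of 82 called genes named by the rule, 33 were called with each library left out and 33 with the 6 libraries alone. Without the B5 and R5 libraries of number 1, 45 stayed called. Adjusted over all genes the authors tested, 70 stayed called and 12 calls ended. Among the 12 were Pax7 (0.0636), Otp (0.0634), Chrna3 (0.0603), Stmn4 (0.0563) and Msi1 (0.0559), with the limma adjusted p in brackets. Over single genes, 2209 of 2786 values under an alternative kept direction and call, 527 lost the call, 29 gained it and 21 changed sign. The sign changes were of genes that were not called. Id3 (0.11) turned to -0.078 and -0.10 with 1 library left out (range -0.10 to 0.40), -0.12 with array weights and -0.16 without the libraries of number 1. Msx1 (0.10) turned to -0.072 and -0.50 with 1 library left out (range -0.50 to 0.65), -0.10 with array weights and -0.011 without the libraries of number 1. Wnt1 (1.12) turned to -0.19 without the libraries of number 1, Atoh1 (0.14) turned to -0.091, -0.16 and -0.75 with 1 library left out (range -0.75 to 0.67), -0.045 with quantile normalization, -0.13 with array weights and -0.98 without the libraries of number 1, Tubb3 (-0.36) turned to 0.011 and 0.20 with 1 library left out (range -1.23 to 0.20) and 0.065 in the authors' deposited table, Krt8 (0.10) turned to -6.32e-04 and -0.019 with 1 library left out (range -0.019 to 0.20) and T (-1.0) turned to 0.15 without the libraries of number 1. Since depth is unknown, low levels carry no counting limit here.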

Other observations

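Gene families, some of whose members stand in the lists, were looked at after the values had been seen, and are given as counts only. Over all genes 2.76% rose and 3.23% fell. Of 5 GATA factor genes 3 rose and 0 fell, with a median log2 change of 2.18, and of 13 T-box genes 4 rose (Tbx3, Tbx5, Tbx18 and Tbx20) and 0 fell, with a median of 0.080. Of 4 POU class 3 genes, which act in neural progenitors, 0 rose and 2 fell (Pou3f1 and Pou3f4), with a median of -1.84, and of 3 Hmx genes 0 rose and 2 fell, with a median of -2.18. In larger families 6 of 232 solute carrier genes rose and 8 fell, 3 of 72 potassium channel genes rose and 2 fell, and 7 of 203 genes named Zfp rose and 4 fell.

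Of 24 microRNA genes 0 rose and 2 fell. Mir219a-2 had levels of 12.7, 7.8 and 33.8 in B5, against 44, 68.3 and 109 in R5 (-2.12, adjusted p = 0.00721), and Mir124a-2, which belongs to a neuronal microRNA family, had 8.62, 2.08 and 4.66 in B5, against 12.8, 17.7 and 25.6 in R5 (-1.79, adjusted p = 0.0340). An mRNA library reads precursors or host transcripts and not the mature strand. The mature strand of Mir219a-2 (mmu-miR-219a-5p, chr2:29845689-29845709, minus strand, GRCm38.p6, RefSeq) is shown with its seed, bases 2 to 8, in capitals.
mmu-miR-219a-5p: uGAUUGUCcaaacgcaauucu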
